A study of Mus musculus with 9 samples.

Results

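Hypoxia-inducible factors and a set of their regulators and target genes were examined in male C57BL/6J mice, in the fat that surrounds the prostate (periprostatic fat). The set was chosen by symbol and holds 10 genes: Hif1a, Epas1, Egln1, Egln3, Vhl, Car9, Bnip3, Adm, Ankrd37 and Ndrg1. Of these, 9 have a probe set that carries exactly 1 gene symbol, among 22180 such genes in all. Ankrd37, an ankyrin repeat gene, shares its probe set with another symbol and was not analysed here. Where a gene had several probe sets, only the brightest one (by its mean over the 9 arrays) was used. High fat mice (5) were fed a diet that draws 60 percent of its energy from fat, and low fat mice (4) one that draws 10 percent. Both groups ate their diet for 12 weeks from 6 weeks of age and were killed at 18 weeks, and the labels name no genotype beyond the strain. Each Affymetrix array measured the RNA of 1 mouse, and the values are log2 expression as the authors deposited them.

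Hypoxia-inducible factors are transcription factors made of an alpha subunit, encoded by Hif1a or Epas1, and a stable partner encoded by Arnt. When oxygen is plentiful, prolyl hydroxylases encoded by the Egln genes mark the alpha subunit, and the von Hippel-Lindau protein, encoded by Vhl, sends it for degradation. When oxygen is scarce the alpha subunit persists, and genes for glycolysis, pH control, mitophagy and vessel growth are switched on. Growing fat depots can become poorly oxygenated, and this control acts mainly on the protein, so a transcript level does not measure the activity of the factors.

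The factors bind DNA at hypoxia response elements, whose core holds the letters ACGTG or GCGTG. The stretch of 250 bases before the start of transcription is shown for a target that was higher in high fat mice (Car9), one that was lower (Bnip3) and one that did not pass the test (Egln1). Capitals mark ACGTG on either strand, so that on the other strand it reads CACGT. A run of CACGTG holds a match on both strands. The sequences are from RefSeq, build GRCm38.p6, written in the direction of transcription. Car9 is chr4:43506776-43507025 on the plus strand, Bnip3 is chr7:138909507-138909756 on the minus strand and Egln1 is chr8:124949255-124949504 on the minus strand.
Car9: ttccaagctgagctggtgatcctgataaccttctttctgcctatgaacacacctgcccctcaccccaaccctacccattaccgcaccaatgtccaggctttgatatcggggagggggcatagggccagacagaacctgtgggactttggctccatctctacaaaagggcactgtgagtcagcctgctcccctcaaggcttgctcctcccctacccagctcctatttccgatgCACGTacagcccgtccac
Bnip3: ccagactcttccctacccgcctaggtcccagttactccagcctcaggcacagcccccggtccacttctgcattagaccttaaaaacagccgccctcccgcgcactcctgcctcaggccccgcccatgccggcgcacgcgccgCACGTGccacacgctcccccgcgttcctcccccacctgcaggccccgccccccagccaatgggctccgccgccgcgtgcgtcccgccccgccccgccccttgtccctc
Egln1: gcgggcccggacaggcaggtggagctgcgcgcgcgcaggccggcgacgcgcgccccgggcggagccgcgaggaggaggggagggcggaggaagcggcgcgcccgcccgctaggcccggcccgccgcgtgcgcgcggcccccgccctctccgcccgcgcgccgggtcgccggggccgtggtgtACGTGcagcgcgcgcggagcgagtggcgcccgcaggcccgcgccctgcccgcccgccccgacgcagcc

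In Car9 the match lay 18 to 14 bases before the start, in Bnip3 the overlapping pair lay 108 to 103 bases before it, and in Egln1 the match lay 68 to 64 bases before it. Promoters were available for 8 of the 10 genes, and 6 of these held ACGTG on either strand (Hif1a, Egln1, Egln3, Car9, Bnip3 and Ankrd37). Of all 32817 promoters of the same length, 16.6% held ACGTG, and 28.1% held GCGTG, which was present in 4 of the 8. Matches of these letters were present in genes whose transcripts were higher, lower or not called in high fat diet. The 8 promoters ran from 50.8% to 86.0% G and C, against a median of 52.4% over all promoters.

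Some arrays stood apart. Arrays of high fat mice 1 and 2 had medians of 6.45 over all rows of the table, against 6.48 to 6.50 on the other 7 arrays. Array correlations ran from 0.991 to 0.996 within a diet. High fat mouse 1 carried skeletal muscle transcripts, with a marker mean of 8.57, whereas the rest of its group had 6.38 to 6.48 and low fat mice had 6.45 to 7.37. Low fat mouse 2 carried smooth muscle transcripts, with a mean of 10.36, whereas high fat mice had 8.37 to 8.53 and the rest of its own group had 8.23 to 8.27.

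In high fat mice, 3 of the 9 measured genes were higher (Hif1a, Vhl and Car9), 3 were lower (Epas1, Bnip3 and Ndrg1), and 3 did not pass the test (Egln1, Egln3 and Adm). The test was limma with Benjamini-Hochberg adjustment over all 22180 genes at an adjusted p of 0.05. Over all genes 21.5% were called, 12.4% higher and 9.13% lower. That share covers bright and dim genes alike. With dim genes left out (those not above the median gene in mean value), 4480 of 11090 genes were called, a larger share. Of the 7 members kept there, 5 were called. Higher genes made up 57.5% of the calls, 45.6% with quantile normalization repeated and 42.2% with arrays centred on their medians. Under these scalings 2 of the 9 members were higher and 4 lower, and 2 higher and 3 lower, in that order. Of all 22180 genes, 5091 and 5283 were called there. Without high fat mice 1 and 2, 1 was higher and 1 lower, beside 3210 called among all genes. Each difference given is the log2 value of high fat mice less that of low fat mice. They were modest, between 1.12-fold and 1.31-fold. The median difference was -0.16 over the 9 genes and -0.001 over all genes, and the median size of a difference regardless of direction was 0.30 over the 9 genes and 0.09 over all genes. The diets did not overlap in 5 of the 9 genes, against 20.7% of all genes. The genes and the lists below were chosen with earlier results of these data known. Their shares beside those over all genes are therefore descriptions and not tests.

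**Figure D1:**
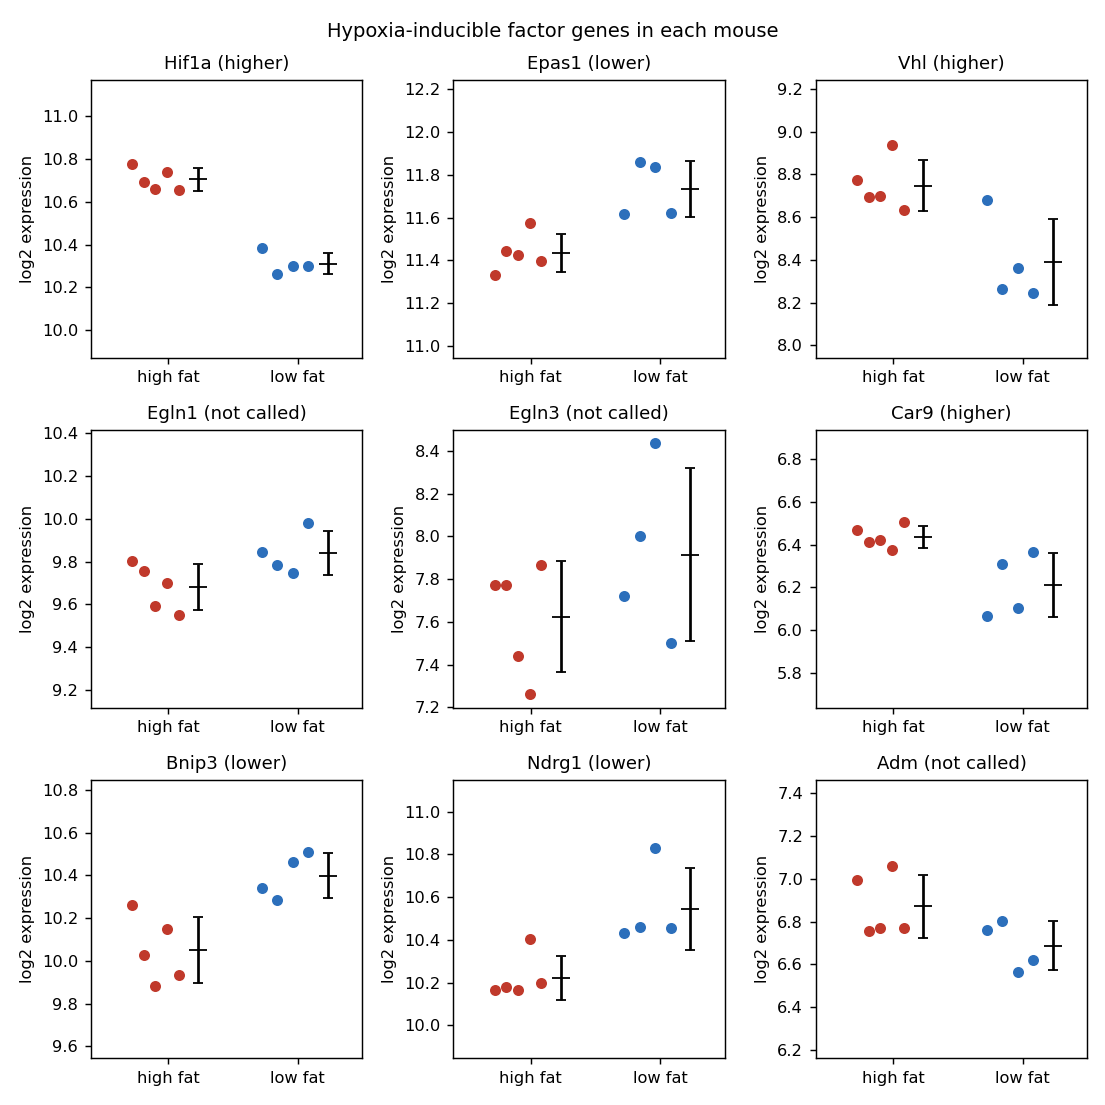
Log2 expression of each of the 9 measured genes in each mouse, with high fat mice (red, n = 5) left of low fat mice (blue, n = 4), and the mean and SD as bars to the right of the points; each panel spans the same log2 range, and the call of the limma test stands in its title. The diets do not overlap in Hif1a, Epas1, Car9, Bnip3 and Ndrg1, and Egln3 has the widest scatter.

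Hif1a (probe set 17276328), which encodes the subunit also called HIF-1 alpha, was higher in every high fat mouse than in any low fat mouse. Its log2 values in high fat mice 1 to 5 were 10.78, 10.69, 10.66, 10.74 and 10.65, against 10.38, 10.26, 10.30 and 10.30 in low fat mice 1 to 4. High fat mice averaged 10.70 ± 0.05 (SD, n = 5) and low fat mice 10.31 ± 0.05 (SD, n = 4), a difference several times the spread within a diet. The fold was 1.31, with a log2 difference of 0.39 ± 0.04 (SE) and a limma adjusted p of 0.000221. In whole tissue, fewer cells of a type and less RNA per cell cannot be told apart, here and in the results that follow. A dimmer probe set that also carries the symbol Hif1a averaged 6.04 ± 0.04 in high fat mice (SD, n = 5), and low fat mice averaged 6.07 ± 0.16 (SD, n = 4) on it, a difference of -0.03 that did not pass limma over all probe sets (adjusted p = 0.8). The average of both probe sets gave a difference of 0.18 that passed.

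Epas1 (probe set 17340197), which encodes the subunit also called HIF-2 alpha and is known from endothelial cells and adipocytes, moved the other way. In high fat mice 1 to 5 the values were 11.33, 11.44, 11.42, 11.58 and 11.40, against 11.62, 11.86, 11.84 and 11.62 in low fat mice 1 to 4. No high fat mouse reached the lowest low fat mouse, although the gap between high fat mouse 4 and that mouse was only 0.04. Epas1 averaged 11.43 ± 0.09 in high fat mice (SD, n = 5) and 11.73 ± 0.13 in low fat mice (SD, n = 4). It was 1.23-fold lower, with a log2 difference of -0.30 ± 0.07 (SE), and the limma adjusted p was 0.0123. Without high fat mice 1 and 2 the difference was -0.27 and no longer passed (limma adjusted p = 0.0728). Whether Hif1a and Epas1 respond differently to diet was not tested as such.

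Vhl (probe set 17461798), the substrate-recognition part of the ubiquitin ligase that removes the alpha subunits, was 1.28-fold higher in high fat mice. Its values were 8.78, 8.69, 8.70, 8.94 and 8.63 in high fat mice 1 to 5, against 8.68, 8.27, 8.36 and 8.25 in low fat mice 1 to 4. The diets overlapped through low fat mouse 1, which lay above high fat mouse 5, whereas the other low fat mice lay below every high fat mouse. The log2 difference was 0.36 ± 0.09 (SE), with a limma adjusted p of 0.0231. The call was lost without low fat mouse 2 (0.32, limma adjusted p = 0.0647), low fat mouse 3 (0.35, 0.0563) or low fat mouse 4 (0.31, 0.0678). It was also lost without high fat mice 1 and 2 (0.37, 0.088) and with muscle marker means as covariates (0.34, 0.0593).

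Neither prolyl hydroxylase of the set passed the test. Egln1 (probe set 17514135), the main oxygen sensor of the family, was at 9.80, 9.76, 9.59, 9.70 and 9.55 in high fat mice 1 to 5, against 9.84, 9.79, 9.75 and 9.98 in low fat mice 1 to 4. High fat mice 3, 4 and 5 lay below every low fat mouse, and high fat mice 1 and 2 fell among them. The difference was -0.16, with a 95% interval of -0.31 to -0.01, and the adjusted p in limma was 0.134. After quantile normalization was repeated it was -0.20 and passed (limma adjusted p = 0.045). Egln3 (probe set 17281084), a hydroxylase that is itself a known target of the factors, was at 7.77, 7.77, 7.44, 7.26 and 7.87 in high fat mice 1 to 5, against 7.72, 8.003, 8.43 and 7.50 in low fat mice 1 to 4. The diets overlapped widely, and the values spread over more than those of any other gene of the set. The 95% interval of its difference ran from -0.71 to 0.13 around -0.29 (limma adjusted p = 0.329), so a decrease of Egln3 as large in size as the increase of Hif1a lies within it.

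**Figure D2:**
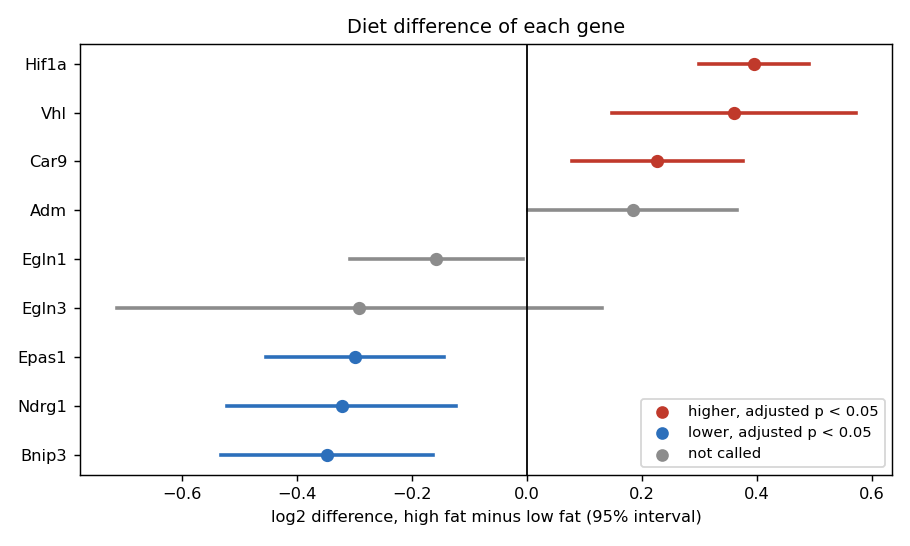
Log2 difference between high fat (n = 5) and low fat (n = 4) mice for each gene, with its 95% interval from limma; red marks genes called higher, blue genes called lower and grey genes not called. Hif1a stands at 0.39 and Bnip3 at -0.35, and the interval of Egln3 is the widest.

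Among the target genes the direction was mixed. Car9 (probe set 17424651) encodes carbonic anhydrase IX, a membrane enzyme of pH control that is a classical marker of hypoxia. It was at 6.47, 6.41, 6.42, 6.38 and 6.51 in high fat mice 1 to 5, against 6.07, 6.31, 6.10 and 6.36 in low fat mice 1 to 4. Every high fat mouse was above every low fat mouse, by only 0.01 at the closest pair. Car9 was 1.17-fold higher, a log2 difference of 0.23 ± 0.07 (SE) with a limma adjusted p of 0.0362. All 9 values lay below the medians of the arrays over all genes, and whether they lie above background was not determined. The dimmer Car9 probe set differed by 0.33 in the same direction and passed limma over all probe sets (adjusted p = 0.0302), with diets that overlapped. The average of both Car9 probe sets gave a difference of 0.28 that passed (limma adjusted p = 0.00288).

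The Car9 call lay near the threshold and was lost under several alternatives. It was lost without high fat mouse 1 (0.22, limma adjusted p = 0.0727), high fat mouse 2 (0.23, 0.064), high fat mouse 3 (0.23, 0.0667) or high fat mouse 5 (0.21, 0.0753). Without high fat mouse 2 or 3 the difference was no smaller than with all 9 mice, and its SE was larger (0.074 in each, against 0.067). The call was lost as well without low fat mouse 1 (0.18, 0.0881) or low fat mouse 3 (0.19, 0.0977), and without high fat mice 1 and 2 (0.22, 0.128). With arrays centred on their medians the difference was 0.18 (limma adjusted p = 0.091), and with quantile normalization repeated it was 0.20 (0.0687).

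Bnip3 (probe set 17497421), which encodes a receptor on the outer mitochondrial membrane that directs mitochondria to autophagy, was 1.27-fold lower in high fat mice. The values were 10.26, 10.03, 9.88, 10.15 and 9.93 in high fat mice 1 to 5, against 10.34, 10.29, 10.46 and 10.51 in low fat mice 1 to 4. All high fat mice lay below all low fat mice, with high fat mouse 1 close to low fat mouse 2. The log2 difference was -0.35 ± 0.08 (SE) with a limma adjusted p of 0.0139. Hif1a and Bnip3 were the only members of the set that also passed without high fat mice 1 and 2 (limma adjusted p = 0.00362 and 0.017).

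Ndrg1 (probe set 17317652), a gene of the N-myc downstream regulated family that is strongly induced by hypoxia in many cell types, was 1.25-fold lower. It was at 10.16, 10.18, 10.17, 10.41 and 10.20 in high fat mice 1 to 5, against 10.43, 10.46, 10.83 and 10.45 in low fat mice 1 to 4. The diets did not overlap, but high fat mouse 4 stood above its group and low fat mouse 3 above its own. The log2 difference was -0.32 ± 0.09 (SE) with a limma adjusted p of 0.0281. The call was lost without high fat mouse 1 (-0.31, limma adjusted p = 0.0605), high fat mouse 2 (-0.31, 0.0635), high fat mouse 3 (-0.31, 0.0645) or high fat mouse 5 (-0.32, 0.0551), and without high fat mice 1 and 2 (-0.29, 0.138). A dimmer Ndrg1 probe set fell on the same side at -0.35, did not pass limma over all probe sets (adjusted p = 0.0795), and placed low fat mouse 4 next to high fat mouse 4.

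**Figure D3:**
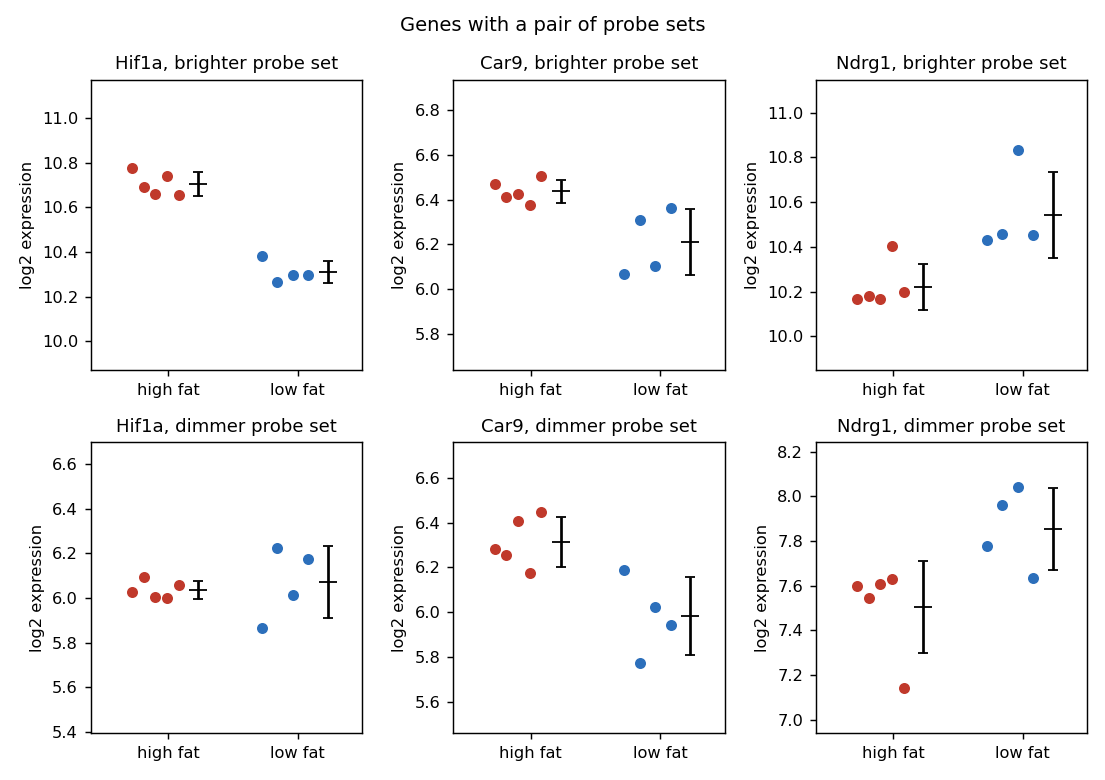
Log2 expression in each mouse for the 3 genes that have a pair of probe sets, with the brighter one, used in the results, in the top row and the dimmer one in the bottom row; high fat mice (red, n = 5) stand left of low fat mice (blue, n = 4), with mean and SD. Hif1a differs by 0.39 on its brighter probe set and by -0.03 on its dimmer one, whereas both probe sets of Car9 and both of Ndrg1 point the same way.

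Adm (probe set 17481770) encodes adrenomedullin, a vasodilator peptide and known target of the factors. It was at 7.00, 6.76, 6.77, 7.06 and 6.77 in high fat mice 1 to 5, against 6.76, 6.80, 6.56 and 6.62 in low fat mice 1 to 4. High fat mice 1 and 4 lay above every low fat mouse, and the other high fat mice fell among them. The difference of 0.18 had a 95% interval of 0.002 to 0.37 and did not pass after adjustment over all genes (limma adjusted p = 0.147). Of 7 measured genes for adrenomedullin receptors and relatives, 3 rose, 42.9% against 21.5% over all genes: Ramp1 (1.26-fold), Ackr3 (1.20-fold) and Calcrl (1.27-fold). Calcrl and the Ramp proteins form the receptors of this peptide family, and Ackr3 is a scavenger receptor that also takes up adrenomedullin. The median difference of the 7 genes was 0.11, against -0.001 over all genes. With dim genes left out 3 of 4 rose, beside 4480 of 11090 genes called. Ramp2 (0.11, limma adjusted p = 0.317), which makes the main vascular adrenomedullin receptor with Calcrl, did not pass. With quantile normalization repeated 1 of the 7 passed, Ramp1. Ackr3 was also lost without low fat mouse 4 (0.23, limma adjusted p = 0.055), and Calcrl in 12 of 19 alternatives.

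Partners and regulators of the factors mostly did not pass the test. Of 17 measured genes, 1 rose and 2 fell, 17.6% against 21.5% over all genes, and the median difference was -0.06. Cited2, which competes with the factors for the coactivators encoded by Ep300 and Crebbp, averaged 10.67 ± 0.08 in high fat mice (SD, n = 5) and 11.20 ± 0.17 in low fat mice (SD, n = 4), 1.45-fold lower (limma adjusted p = 0.00097). Eloc, which encodes elongin C of the Vhl ubiquitin ligase, was 1.17-fold higher (limma adjusted p = 0.0457). Rwdd3, a gene linked to sumoylation of the Hif1a product, was 1.41-fold lower (limma adjusted p = 0.0416). Arnt, the shared partner, was at 10.39 in high fat mice and 10.53 in low fat mice, with a limma adjusted p of 0.0846. Hif3a, the third alpha subunit gene, was at 7.23 in high fat mice and 7.32 in low fat mice (limma adjusted p = 0.491). Egln2, the third prolyl hydroxylase gene, was at 8.87 in high fat mice and 9.01 in low fat mice (limma adjusted p = 0.104). Under each rescaling of the arrays Eloc did not pass, whereas Arnt and Egln2 passed as lower, at -0.19 and -0.19 with quantile normalization repeated and -0.18 and -0.19 with arrays centred on their medians. The Eloc call was lost in 12 and the Rwdd3 call in 10 of 19 alternatives.

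Glycolytic and glycogen genes known as targets of the factors split evenly. Of 19 measured, 6 rose and 6 fell, 63.2% against 21.5% over all genes, with a median difference of 0.07. With dim genes left out 6 of 17 rose and 6 fell, beside 4480 of 11090 genes called. Without high fat mice 1 and 2, 1 rose and 6 fell, with Pfkp (0.32, limma adjusted p = 0.0695) and Pfkfb4 (0.46, 0.0894) among the calls lost. Tpi1, triose phosphate isomerase, was 1.34-fold higher, at 12.11 ± 0.08 in high fat mice (SD, n = 5) against 11.69 ± 0.05 in low fat mice (SD, n = 4), and Pfkp, a phosphofructokinase, 1.32-fold higher. The largest decreases were in glycogen synthesis: Gys1, glycogen synthase, was 1.95-fold lower and Gbe1, the branching enzyme, 1.79-fold lower, with limma adjusted p of 0.00014 and 0.000264. Genes of the same family moved in opposite directions, as seen after their values were known: Pfkfb4 was 1.41-fold higher and Pfkfb3 1.62-fold lower, both enzymes that set the level of a phosphofructokinase activator. Ldha, lactate dehydrogenase A, differed by 0.09 (limma adjusted p = 0.2), and Slc2a1, a glucose transporter, by 0.17 (limma adjusted p = 0.144).

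Of 27 measured targets outside glycolysis, 12 rose and 4 fell, 59.3% against 21.5% over all genes, and the median difference was 0.13. With dim genes left out 11 of 25 rose and 4 fell, beside 4480 of 11090 genes called. Hmox1, heme oxygenase, was 2.89-fold higher, at 10.33 ± 0.26 in high fat mice (SD, n = 5) against 8.80 ± 0.17 in low fat mice (SD, n = 4), and Lox, the collagen cross-linking enzyme, 1.98-fold higher. Stc2, a secreted stanniocalcin, was 1.56-fold lower and Vegfa, the vascular growth factor, 1.43-fold lower, with limma adjusted p of 0.00334 and 0.01. Among others chosen after their values were seen, P4ha1, a collagen prolyl hydroxylase, was 1.37-fold higher, Ddit4, an inhibitor of growth signalling, 1.56-fold higher, while Vldlr, a lipoprotein receptor, differed by 0.58. Hilpda (2.22-fold), Cxcr4 (1.75-fold) and Plin2 (1.71-fold) were also among the 12 that rose. Kdm3a, Ero1a, Higd1a and Mxi1, which are induced by hypoxia in many cells, were among the 11 that did not pass (-0.07, 0.03, 0.15 and 0.12 in that order). These were likewise picked after their values were seen. Without high fat mice 1 and 2, 10 of the 27 rose and 2 fell. Vegfa (-0.51, limma adjusted p = 0.0589) and P4ha1 (0.41, 0.0714) no longer passed there.

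**Figure D4:**
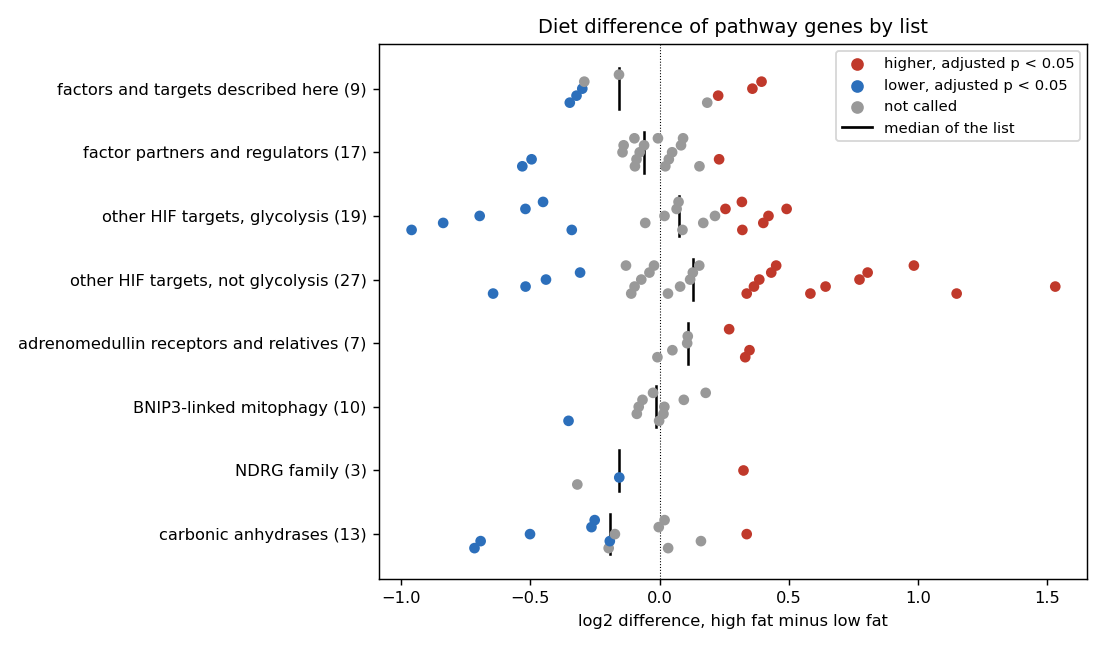
Log2 difference between high fat and low fat mice for each measured gene, by list, with the number of genes in parentheses; red marks genes called higher, blue genes called lower, grey genes not called, and the black bar the median of the list. The list of glycolytic targets holds 6 genes on either side, and Hmox1 is the point at 1.53 in the list of other targets.

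Relatives of the members were read from the same fit. Of 10 measured genes of receptor-mediated mitophagy and its autophagy partners, 1 fell, Pink1, the kinase of the other mitophagy route (1.28-fold lower), which is 10.0% against 21.5% over all genes. The Pink1 call was lost without high fat mouse 3 (-0.32, limma adjusted p = 0.0686), low fat mouse 1 (-0.34, 0.0677), low fat mouse 3 (-0.34, 0.0718) or low fat mouse 4 (-0.31, 0.0823). In the family of Ndrg1, Ndrg4 was 1.25-fold higher and Ndrg3 1.11-fold lower, and Ndrg2 did not pass (-0.32, limma adjusted p = 0.0704). Without high fat mice 1 and 2 the Ndrg4 and Ndrg3 calls were lost (0.37 and -0.16, limma adjusted p = 0.0523 and 0.0646). In all, the Ndrg4 call was lost in 6 of 19 alternatives and the Ndrg3 call in 2. Ndrg2 passed as lower in 6 of 19. Among these were both rescalings of the arrays (-0.35 and -0.36, limma adjusted p = 0.0427 and 0.0401) and the fit without low fat mouse 2 (-0.44, limma adjusted p = 0.00324). Of 13 measured carbonic anhydrase genes other than Car9, 1 rose and 6 fell, 53.8% against 21.5% over all genes. With dim genes left out 0 of 7 rose and 5 fell, beside 4480 of 11090 genes called. Car12, like Car9 a membrane enzyme and a target of the factors, was 1.26-fold higher. It averaged 6.48 in high fat mice and 6.14 in low fat mice, below the array medians over all genes (6.91 to 6.98). Whether Car12 lies above background was not determined, and it is also counted among the targets outside glycolysis that rose. The mitochondrial enzyme gene Car5b was 1.62-fold lower and the cytosolic enzyme gene Car1 1.64-fold lower.

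The genes whose values across the 9 arrays lay closest to those of Hif1a, after centring each gene on its own mean, were Itgb1, an integrin subunit, Ufsp2, a peptidase of the UFM1 system, and Psme4, a proteasome activator. Their root mean square distances from Hif1a were 0.04, 0.04 and 0.05 log2 units, and their own differences were 0.35, 0.36 and 0.34. Closest to Epas1 were Slc9a8, a sodium-proton exchanger, Kmt2b, a histone methyltransferase, and Bmp6, a growth factor, each at a distance of 0.04. Their differences were -0.28, -0.27 and -0.36. The distance is a description over 9 arrays that fall into 2 diets.

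Cell markers moved with diet alongside these genes. Macrophage markers were higher, with 13 of 14 measured called higher and a mean log2 value per mouse of 10.74 to 11.34 in high fat mice against 9.40 to 9.80 in low fat mice. Adipocyte markers were lower, with 10 of 12 called lower and 1 higher, and a mean of 11.83 to 12.06 in high fat mice against 12.38 to 12.46 in low fat mice. Fibroblast and progenitor markers were called higher in 6 of 9, with means of 10.81 to 11.25 in high fat mice and 10.03 to 10.42 in low fat mice. Endothelial markers overlapped, at 9.68 to 9.86 in high fat mice and 9.78 to 9.93 in low fat mice, with 1 of 12 higher and 2 lower. The part of these cell types in the differences of the hypoxia-inducible factor genes was not tested. Prostate and seminal vesicle markers were at 5.05 to 5.15 in high fat mice and 5.04 to 5.15 in low fat mice.

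Within the high fat group, mouse 4 held the highest value of its diet in 4 of the 9 genes: Epas1, Vhl, Ndrg1 and Adm. It also held the lowest value in 2 genes, Egln3 and Car9, and high fat mouse 1 held the highest in 3. High fat mouse 4 had the highest adipocyte marker mean of its group (12.06) and the lowest macrophage marker mean (10.74). Whether its markers and its gene values are linked was not tested. With both muscle means as covariates 5 of the 9 genes were called, Vhl being the one lost, beside 4425 of all 22180 genes.

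**Figure D5:**
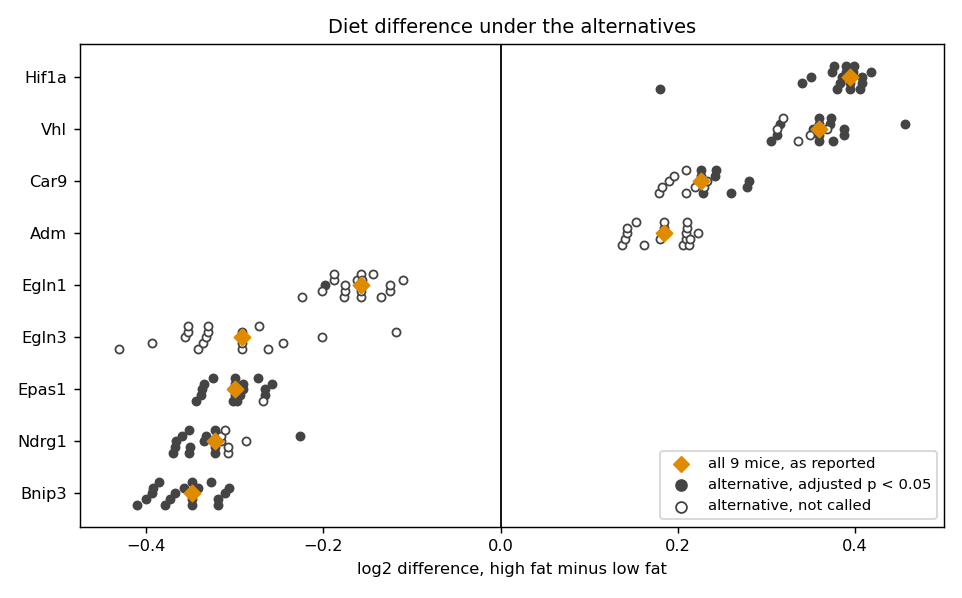
Log2 difference of each gene with all 9 mice (orange diamonds) and under the alternatives in normalization, model and mice left out (circles, filled where the limma adjusted p passed 0.05). Every circle lies on the same side of 0 as its diamond, Hif1a and Bnip3 are filled throughout, and most circles of Car9 are open.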

How the data were processed

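Total RNA of periprostatic fat was hybridised to Affymetrix arrays, 1 mouse per array, per the labels' protocols. The deposited log2 values come from RMA, per the submitters' processing notes, which list RMA, limma and R 3.5.0 without saying what each did; the annotation version and any filters are not stated there. RMA corrects background, normalizes quantiles and summarises probes, so small shifts between arrays can remain. Probes were named through the platform table: 23521 of 33793 rows had 1 symbol, and 1082 genes with several probes kept the brightest, which left 22180 genes. Entrez identifiers matched 23328 probes to the GRCm38.p6 table and changed 0 symbols.

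Diet was tested with limma 3.58.1 (lmFit, eBayes) in R 4.3.3, intercept and diet only, Benjamini-Hochberg over all genes. Intervals are limma's 95% intervals. Whether the mice shared cages is not given, and the number of arrays limits precision. The procedure was tested on simulated data with independent noise for each gene, which do not carry the differences between arrays seen here. The genes and lists were chosen with earlier results of these data known. Named genes are all members, the 2 list genes with the smallest p in each direction, and the 3 genes nearest to Hif1a and Epas1; other list genes were picked after their values were seen. Of the 10 members, Ankrd37 was left out.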

Additional observations from a re-analysis of the deposited data

Results flagged for a closer look

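Ndrg1 was the only gene of the set with a mouse far from the rest of its diet by Dixon's test of the gap over the range, which was run on 18 groups (9 genes in each diet). In high fat diet, mouse 4 was at 10.405, and the rest of that group lay at 10.16 to 10.20. In low fat diet, mouse 3 was at 10.831, and the rest of that group lay at 10.43 to 10.46. Chance flags about 1 in 20 groups. Without high fat mouse 4 the difference of Ndrg1 was -0.37, and without low fat mouse 3 it was -0.23, and it passed the limma test in both.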

How the results depend on the processing

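Over 169 combinations of a member and an alternative, none turned the direction, 146 kept their side of the threshold, 22 lost the call and 1 gained it (Egln1 with quantile normalization repeated). In some of them the direction could not turn. Fits that changed only the genes tested or the variance model kept the same difference. Where the diets did not overlap, leaving out mice could not turn it either. Hif1a and Bnip3 passed in all 19 limma alternatives each, with differences of 0.18 to 0.42 for Hif1a and -0.41 to -0.31 for Bnip3. Leaving out each mouse in turn gave 4 to 6 called members and 3759 to 4364 called genes; leaving out high fat mice 1 and 2 gave 2 members and 3210 genes. Car9 and Adm were not tested with dim genes left out. An exact two-sided permutation test over every assignment of the mice to the diets, adjusted over all genes, called 0 genes and 0 members. Its smallest adjusted p was 0.0765, and 6762 genes had an unadjusted p under 0.05. The number of possible assignments sets a floor for the unadjusted p only, and that floor was 0.0159 in this permutation test. Hif1a, Epas1, Car9, Bnip3 and Ndrg1 all lay at it, so a wider gap between the diets could not have lowered their p. The adjusted p also depends on how many genes have a low unadjusted p, so the design alone did not decide this outcome. For the members at the floor, the lack of a call here therefore does not decide whether they differ between the diets. Same-numbered mice of the diets share only a number in the titles. Correlations of their deviations from the diet means across genes were 0.08, 0.13, 0.07 and 0.05, and with that number as a replicate block (high fat mouse 5 left out) 4036 genes and 4 members passed, Car9 (0.21) and Ndrg1 (-0.32) being lost. No detection calls were used, so how far dim values such as those of Car9 lie above background limits what they show.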
